A study of Homo sapiens with 6 samples.

Results

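The ATP-binding cassette (ABC) transporter genes were examined in A549, a human lung adenocarcinoma cell line, with or without knockdown of METTL3, the catalytic subunit of the m6A writer complex. A row of the count table was taken as a member when its symbol was ABC, a subfamily letter from A to G and a number. Of 57781 rows, 46 matched, and 45 were kept after 1 annotated pseudogene, ABCC13, was left out. RNA was sequenced from 3 libraries of vector-control A549 cells, whose genotype is given as WT, and from 3 libraries of METTL3-knocked down cells (shMETTL3). Both groups share the parental line and the growth medium, and the labels name no drug treatment. The count columns number the knockdown libraries sh1 to sh3, so their spread may include differences between hairpins. Nothing in the labels says that libraries of a group came from separate cultures, so the p-values measure only the spread between these libraries.

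ABC proteins bind and hydrolyse ATP through a conserved nucleotide-binding domain, and most of them use it to move a substrate across a membrane. Subfamily A mainly handles lipids, subfamily B holds the multidrug pump P-glycoprotein beside mitochondrial, lysosomal and bile canalicular transporters, and subfamily C holds the multidrug resistance-associated proteins (MRPs), which export glutathione and glucuronide conjugates, as well as the sulfonylurea receptors. Subfamily D works mainly in peroxisomes, subfamilies E and F act in translation rather than in transport, and subfamily G exports sterols and drugs. In lung tumors, the drug efflux members are known for lowering the intracellular dose of chemotherapy, and in the alveolus ABCA3 loads surfactant lipid into lamellar bodies.

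The library totals ran from 14931426 to 19108928 counts. METTL3 itself, the check of the knockdown, had 887, 846 and 808 counts in vector replicates 1, 2 and 3 and 364, 399 and 307 counts in shMETTL3 replicates 1, 2 and 3, and fell to 38.9% of the vector level (log2 fold change -1.36, edgeR adjusted p = 4.57e-16). This and the following changes were tested with edgeR's quasi-likelihood method, TMM scaling of library sizes and Benjamini-Hochberg adjustment over 15125 genes, and a gene was called at an adjusted p under 0.05. SE is the standard error of a log2 fold change. Levels are TMM-scaled CPM, the counts of a gene relative to the scaled size of its library. In these libraries 66.6% of all tested genes were called, 33.7% higher and 32.9% lower, against which every count of members has to be read. The epithelial markers KRT8, KRT18, KRT7, EPCAM and CDH1 were detected in every library, at a summed level of 9905 to 10562 CPM in vector and 5140 to 5588 CPM in shMETTL3 libraries, with 4 of 5 lower and KRT7 higher. Markers of other cell types moved too, and their part in the results was not tested. The 5 leukocyte markers, PTPRC, CD3E, CD14 and LYZ among them, summed to 0.334 to 1.04 CPM in vector and 5.94 to 7.12 CPM in shMETTL3 libraries, with 1 of 5 tested (CD14, higher) and CD3E at 0 in all libraries. CD14 had 6, 5 and 16 counts in vector and 125, 117 and 105 counts in shMETTL3 libraries. It reached the filter only through the knockdown libraries. The 3 of 4 endothelial markers with a row, VWF, CDH5 and KDR, summed to 0 to 0.123 CPM in vector and 1.40 to 1.95 CPM in shMETTL3 libraries, with VWF at 0 and CDH5 the only one tested (higher), which reached the filter only through the knockdown libraries. The fibroblast markers COL1A1, COL3A1, DCN, PDGFRB and LUM summed to 6.46 to 9.87 CPM in vector and 14.1 to 14.7 CPM in shMETTL3 libraries, with COL1A1 higher and LUM not called. The libraries are bulk RNA, so a change in the number of cells that express a gene and a change in its RNA per cell cannot be told apart.

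Of the 45 members, 32 had enough counts to be tested and 22 of these were called, 10 higher and 12 lower in the shMETTL3 libraries. This is 68.8% of the tested members, close to the 66.6% of all tested genes. The median log2 fold change was 0.019 over the tested members and 0.0022 over all tested genes, and called members lay on both sides of 0. The split rested in part on the scaling: with library size alone, which moved the median of all genes to 0.18, 17 members were called higher and 8 lower. Sizes varied widely within the family: 9 of the called members changed by under 0.5 on the log2 scale, 7 by 0.5 to 1, and 6 by 1 or more, where 17.6% of all tested genes passed both the adjusted p and that size. Among these were ABCA1 and ABCC8, which rose, and ABCA4, ABCB1 and ABCB4, which fell. The vector and shMETTL3 libraries did not overlap in TMM-scaled CPM for 22 of the 32 tested members, beside 69.4% of all tested genes.

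**Figure D1:**
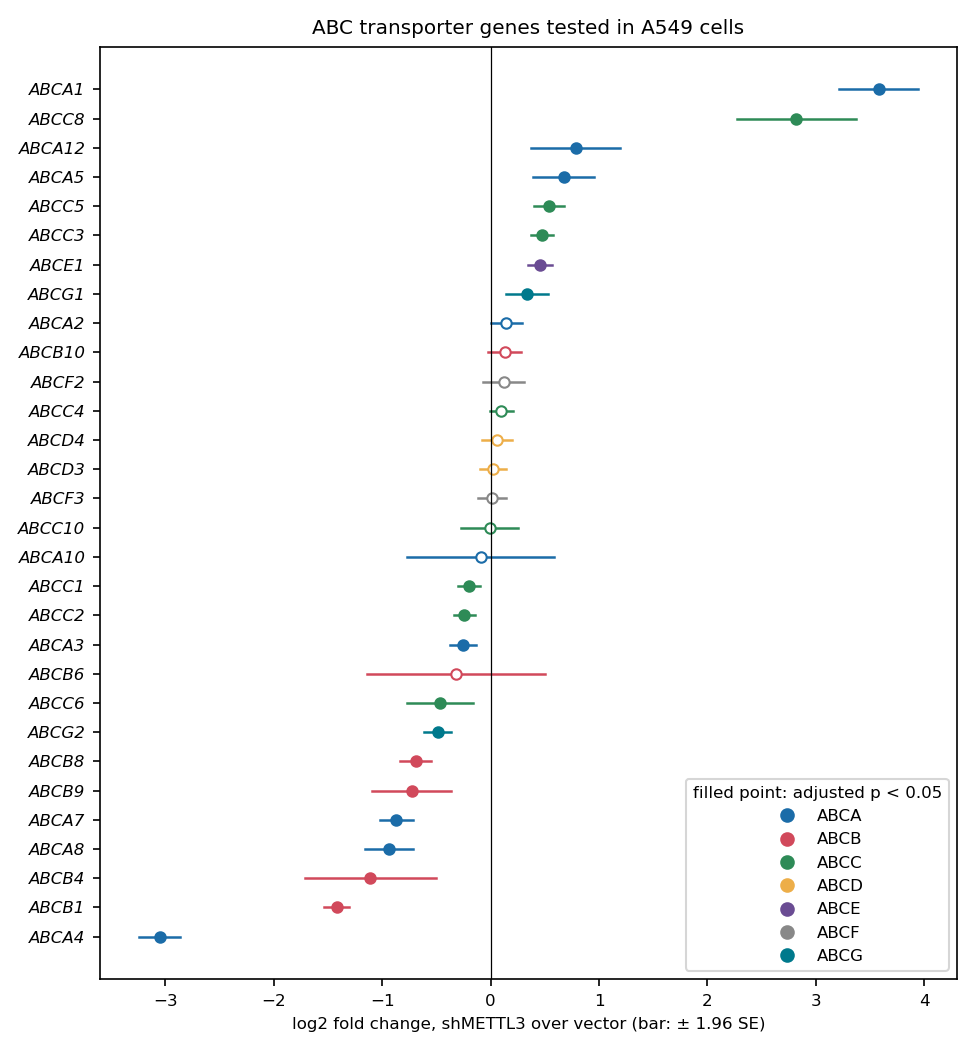
Log2 fold change of 30 of the 32 tested ABC transporter genes, shMETTL3 over vector, with bars of 1.96 SE, colored by subfamily and filled where the adjusted p was under 0.05. ABCA1 lies farthest to the right at 3.58 and ABCA4 farthest to the left at -3.05, and the 10 genes with open points lie between -0.32 and 0.14.

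By subfamily, ABCA had 7 of 9 tested members called (3 higher, 4 lower), ABCC 6 of 8 (3 higher, 3 lower), ABCF 0 of 2 and ABCG 2 of 2 (1 higher, 1 lower), and ABCE1, the only member of its subfamily, rose. Of the tested ABCB genes, 4 fell, and the median of that subfamily was -0.69 on the log2 scale, beside -0.091 for ABCA and 0.046 for ABCC. The counts called, from few genes per subfamily, stand beside 66.6% of all tested genes. Differences between subfamilies were not tested.

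The drug efflux genes included the most abundant ABC transcripts, those of ABCC1, ABCC2 and ABCC3. All 7 were tested, and 6 were called, beside 66.6% of all tested genes. ABCC3 and ABCC5 were higher, and ABCB1, ABCC1, ABCC2 and ABCG2 lower. ABCB1 fell by far the most, to 37.4% of its vector level, while these 3 abundant MRP genes moved by under 0.5 (log2). ABCC4 was not called. The median log2 fold change of the 7 genes was -0.20.

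ABCB1 encodes P-glycoprotein, the broad-spectrum efflux pump for hydrophobic drugs such as taxanes and anthracyclines, and lies on the minus strand at chr7:87132333-87342639 of GRCh37. It had 2241, 2001 and 1808 counts in vector replicates 1, 2 and 3 and 853, 865 and 725 counts in shMETTL3 replicates 1, 2 and 3. Every knockdown library lay far below every vector library, at 44.3 ± 1.27 CPM (SD, n = 3) beside 118 ± 7.10 CPM (SD, n = 3). The log2 fold change was -1.42 (SE 0.058, edgeR adjusted p = 8.04e-18), and 557 of all tested genes had a lower one. ABCB4, its neighbor on chromosome 7, encodes the floppase that moves phosphatidylcholine into bile. It was expressed close to the filter, with 27, 25 and 26 counts in vector and 17, 12 and 10 counts in shMETTL3 replicates 1, 2 and 3, and it too was lower in all 3 knockdown libraries. Its log2 fold change was -1.11 (SE 0.31, edgeR adjusted p = 0.00234).

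ABCG2, the breast cancer resistance protein, exports topoisomerase inhibitors, sulfate conjugates and urate. It had 955, 809 and 806 counts in vector and 697, 738 and 551 counts in shMETTL3 libraries, and fell to 71.3% of the vector level (log2 fold change -0.49, SE 0.063, edgeR adjusted p = 1.48e-07). The groups did not overlap after scaling, with 48.4 to 53.2 CPM in vector and 34.7 to 36.8 CPM in knockdown libraries.

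ABCC3 (MRP3), a basolateral exporter of glucuronides and bile salts, had 9764, 8943 and 9921 counts in vector and 14590, 16144 and 12458 counts in shMETTL3 libraries. It rose from 562 ± 39.8 to 782 ± 24.9 CPM (SD, n = 3 each), a log2 fold change of 0.48 (SE 0.053, edgeR adjusted p = 1.14e-08). ABCC5 (MRP5), an exporter of cyclic nucleotides and nucleoside analogs, had 410, 382 and 405 counts in vector and 672, 657 and 558 counts in shMETTL3 libraries. It rose from 23.5 ± 1.14 to 34.2 ± 1.28 CPM (SD, n = 3 each), a log2 fold change of 0.54 (SE 0.071, edgeR adjusted p = 1.79e-07). Both genes were higher in each knockdown library than in any vector library.

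ABCC1 (MRP1), the exporter of glutathione conjugates and leukotriene C4, and ABCC2 (MRP2), its apical counterpart, fell by small amounts. ABCC1 had 6461, 6211 and 6606 counts in vector and 6330, 6605 and 5318 counts in shMETTL3 libraries, which overlap before scaling and lie at 360 to 405 and 328 to 335 CPM after it. Its log2 fold change was -0.20 (SE 0.051, edgeR adjusted p = 0.00152). ABCC2 had 11314, 9938 and 9810 counts in vector and 10138, 10483 and 7902 counts in shMETTL3 libraries, or 595 to 630 and 498 to 525 CPM after scaling. Its log2 fold change was -0.24 (SE 0.049, edgeR adjusted p = 0.000109). Both calls held in 13 of 14 alternative fits, RLE and upper-quartile scaling and DESeq2 among them, and were lost with library size alone, where the log2 fold changes were -0.020 for ABCC1 (adjusted p = 0.731) and -0.066 for ABCC2 (adjusted p = 0.243). ABCC4 (MRP4), which exports cyclic nucleotides and prostanoids, had 1861, 1674 and 1541 counts in vector and 2058, 2071 and 1750 counts in shMETTL3 libraries. Its log2 fold change of 0.10 was not called (edgeR adjusted p = 0.102), and its interval of 1.96 SE ran from -0.0049 to 0.21. With upper-quartile scaling ABCC4 was at 0.12 (adjusted p = 0.0462) and with library size alone at 0.27 (adjusted p = 0.000173), so whether ABCC4 was called depended on the scaling.

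**Figure D2:**
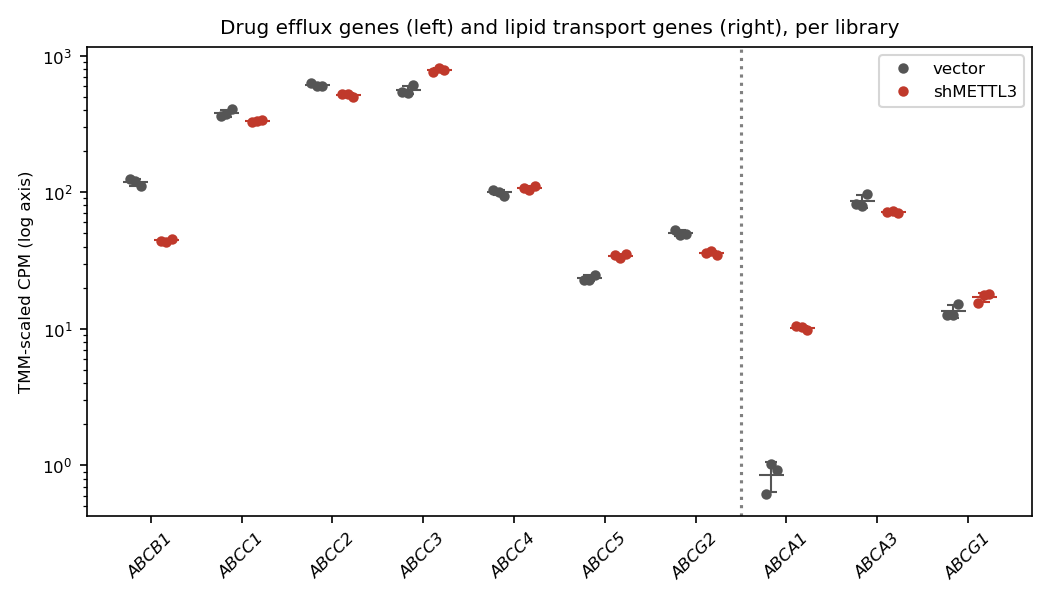
TMM-scaled CPM (log axis) of the 7 drug efflux genes, left of the dotted line, and the 3 lipid transport genes, right of it, in the 3 vector (gray) and 3 shMETTL3 (red) libraries; points are libraries, horizontal marks means and bars SDs. The groups are separate for ABCB1 and ABCA1 by far more than their spread, while those of ABCC4 overlap at 94.5 to 104 and 103 to 110 CPM.

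Levels were also set per length, as CPM per kilobase of the union of annotated exons, to compare genes with one another. ABCC2 was the most abundant member in the vector libraries at 77.7 CPM per kb, ahead of ABCC3 at 58.5 and ABCC1 at 43.4. In the shMETTL3 libraries ABCC3 stood first at 81.3 CPM per kb, ahead of ABCC2 at 65.7 and ABCC1 at 37.9. The gaps between these neighbors exceeded the SDs between libraries in both groups, although the order also depends on the exon models used for length. ABCB1 went from rank 4 of the 45 members, at 18.4 CPM per kb, to rank 9, at 6.90 CPM per kb, and ABCA4 from rank 12 to rank 25. ABCF3 and ABCD3, neighbors at ranks 9 and 10 in the vector libraries with 8.16 and 7.81 CPM per kb, did not differ beyond their spread.

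Summed over all members, the level per length was 296 to 308 CPM per kb in the vector libraries and 295 to 298 CPM per kb in the shMETTL3 libraries. The 7 drug efflux genes held 72.7% to 73.7% of this sum in vector and 71.8% to 72.6% in shMETTL3 libraries. Within it, the share of ABCC3 was 18.8% to 20.5% in vector and 26.6% to 28.1% in shMETTL3 libraries, and that of ABCB1 was 5.60% to 6.48% and 2.25% to 2.40%. The makeup of the efflux transcripts therefore differed between the groups by more than their summed share did, without a test.

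**Figure D3:**
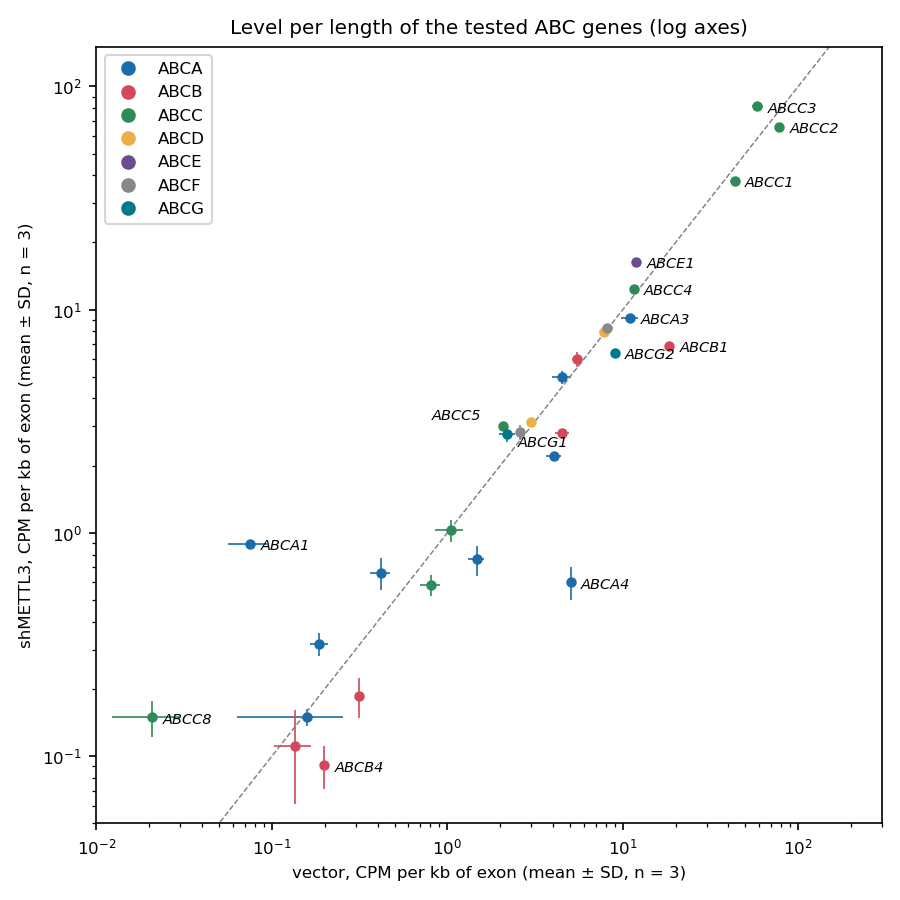
Mean level per length of 30 of the 32 tested ABC genes in vector (x) and shMETTL3 (y) libraries, in CPM per kb of exon on log axes with SDs (n = 3), colored by subfamily; the dashed line marks equal levels. ABCC1, ABCC2 and ABCC3 sit at the top near the line, ABCB1 and ABCA4 lie below it, and ABCA1 and ABCC8 lie above it.

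The 3 lipid transport genes were all called, ABCA1 and ABCG1 higher and ABCA3 lower, beside 66.6% of all tested genes. ABCA1 passes cholesterol and phospholipid to lipid-poor apolipoprotein A-I, and lies on the minus strand at chr9:107543287-107690436 of GRCh37. It was nearly silent in vector-control cells, with 11, 17 and 15 counts in replicates 1, 2 and 3, and had 201, 205 and 156 counts in shMETTL3 replicates 1, 2 and 3. From 0.850 ± 0.211 to 10.2 ± 0.298 CPM (SD, n = 3 each), it rose 11.9-fold, the largest rise among the tested members (log2 fold change 3.58, SE 0.19, edgeR adjusted p = 1.3e-15). All 3 knockdown libraries lay above all 3 vector libraries, and 140 of all tested genes had a higher log2 fold change.

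ABCG1, which passes cholesterol on to mature HDL particles, had 227, 210 and 246 counts in vector and 297, 354 and 283 counts in shMETTL3 libraries. It rose by much less than ABCA1, with a log2 fold change of 0.34 (SE 0.097, edgeR adjusted p = 0.00335), and the lowest knockdown library, at 15.4 CPM, lay just above the highest vector library, at 15.1 CPM. ABCA3, the surfactant lipid transporter of alveolar type II cells, had 1479, 1318 and 1571 counts in vector and 1391, 1461 and 1121 counts in shMETTL3 libraries. It fell to 83.7% of the vector level (log2 fold change -0.26, SE 0.063, edgeR adjusted p = 0.000803), and with library size alone it was at -0.080 (adjusted p = 0.247).

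Promoter stretches from RefSeq (GRCh38.p14) are shown for ABCA1 and ABCB1, the tested member with the largest rise and the drug efflux gene with the largest fall. Each runs 5′ to 3′ over the 250 bases before a transcription start on the minus strand, at chr9:104928156-104928405 for ABCA1 and at chr7:87600885-87601134 for the downstream of the 2 ABCB1 starts listed. Capitals mark matches, on either strand, to CACGTG (the E-box), GGGCGG (the GC box), CCAAT (the NF-Y site), GCGTG (the core bound by the aryl hydrocarbon receptor), AGGTCA (a nuclear receptor core), TGACTCA (the AP-1 site) and TATAAA.
ABCA1: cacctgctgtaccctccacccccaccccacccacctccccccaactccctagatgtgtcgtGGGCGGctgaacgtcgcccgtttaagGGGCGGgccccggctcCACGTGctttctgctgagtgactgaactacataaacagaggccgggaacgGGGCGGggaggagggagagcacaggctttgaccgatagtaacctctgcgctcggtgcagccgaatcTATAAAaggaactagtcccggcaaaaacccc
ABCB1: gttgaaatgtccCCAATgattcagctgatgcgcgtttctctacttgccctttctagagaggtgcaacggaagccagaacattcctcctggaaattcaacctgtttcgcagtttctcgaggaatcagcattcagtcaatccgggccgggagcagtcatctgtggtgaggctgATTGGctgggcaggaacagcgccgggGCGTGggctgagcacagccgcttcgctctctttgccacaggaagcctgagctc

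The ABCA1 stretch held 1 CACGTG, 3 GGGCGG and 1 TATAAA, and the ABCB1 stretch held 2 CCAAT and 1 GCGTG. The stretch before the other ABCB1 start, at chr7:87713296-87713545, held none of the 7 motifs, and the one with matches is the one shown. These letters are common: among 35116 stretches of the same length, 6.34% held CACGTG, 42.6% GGGCGG, 10.7% TATAAA, 32.0% CCAAT and 32.2% GCGTG. Neither stretch held AGGTCA, which was in 12.1% of all stretches, or TGACTCA, which was in 4.20%. The ABCA1 promoter is known to carry an element for the liver X receptors (LXRs), whose letters depart from that core. Of the 45 members, 35 had at least 1 stretch in the RefSeq table, with 53 stretches in all. Of these 53, 17% held CACGTG, 47.2% GGGCGG, 11.3% TATAAA, 20.8% CCAAT, 39.6% GCGTG, 3.77% AGGTCA and 1.89% TGACTCA, without a test against all stretches. Among those without one were ABCA4, ABCA8, ABCB4, ABCB5, ABCC1, ABCC3, ABCC8 and ABCG1. The matches are a description of the sequence, and binding was not measured.

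Among the other subfamily A members, ABCA4 changed most. It encodes the retinoid flippase of photoreceptors, lies on the minus strand at chr1:94458390-94586704 of GRCh37, and had 791, 678 and 727 counts in vector and 101, 119 and 67 counts in shMETTL3 replicates 1, 2 and 3. It fell from 43.1 ± 2.17 to 5.13 ± 0.862 CPM (SD, n = 3 each), or to 12.0% of the vector level, the largest fall among the tested members (log2 fold change -3.05, SE 0.097, edgeR adjusted p = 2.65e-20). No knockdown library came near the vector range. ABCA7, which exports phospholipid and promotes phagocytosis, fell by 0.87 on the log2 scale (edgeR adjusted p = 1.1e-10), and ABCA8, an exporter of cholesterol, by 0.94 (edgeR adjusted p = 3.46e-08). ABCA12, the lipid transporter of keratinocyte lamellar granules, rose by 0.79 (edgeR adjusted p = 0.00169), and ABCA5, a lysosomal member, by 0.67 (edgeR adjusted p = 0.000156). In each of these 4 genes the 3 knockdown libraries lay outside the vector range. ABCA5, ABCA8 and ABCA10 lie in the same gene cluster on chromosome 17 and differed in direction: ABCA5 rose, ABCA8 fell, and ABCA10 was at -0.091 (edgeR adjusted p = 0.827). ABCA2, an endolysosomal lipid transporter, was at 0.14 (edgeR adjusted p = 0.0779), but at 0.24 (adjusted p = 0.000728) without vector replicate 3, at 0.19 (adjusted p = 0.0362) without shMETTL3 replicate 3, at 0.17 (adjusted p = 0.0397) with upper-quartile scaling, at 0.16 (adjusted p = 0.0469) with at least 10 counts in every library, and at 0.32 (adjusted p = 0.000341) with library size alone. ABCA5 and ABCA10 share 318 bases of exon on the same strand, where reads cannot be assigned to either.

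Among the mitochondrial members of subfamily B, ABCB8, a mitochondrial potassium channel component and iron exporter, fell by 0.69 on the log2 scale (edgeR adjusted p = 3.58e-09), and ABCB10, which acts in heme synthesis, was at 0.13 (adjusted p = 0.154), or at 0.30 (adjusted p = 0.00249) with library size alone. ABCB9, a lysosomal peptide transporter, fell by 0.73 (adjusted p = 0.0011), but its exons overlap ARL6IP4 by 1590 bases and OGFOD2 by 1656 bases on the opposite strand, and whether reads were counted by strand is not given in the sources used here. ABCB6, a porphyrin transporter with 6 to 16 counts in each library, was at -0.32 (adjusted p = 0.508), and 2841 of its 5205 exon bases lie on the same strand as exons of another protein-coding gene in the annotation used here, where reads could come from either.

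In subfamily C beyond the efflux genes, the sulfonylurea receptor ABCC8 changed most of the tested members. ABCC8 (SUR1), at chr11:17414045-17498441 on the minus strand, is the regulatory subunit of the ATP-sensitive potassium channel of pancreatic beta cells. It had 12, 5 and 12 counts in vector and 62, 93 and 69 counts in shMETTL3 replicates 1, 2 and 3, and rose 7.06-fold (log2 fold change 2.82, SE 0.28, edgeR adjusted p = 9.17e-10). It reached the 0.559 CPM of the filter in 2 of 3 vector libraries and in all 3 knockdown libraries, so it was tested mainly through the group where it was high. ABCC9 (SUR2), its counterpart in muscle, had 7, 3 and 7 counts in vector and 1, 0 and 1 counts in shMETTL3 libraries, too few to be tested. Its mean vector level was 2.02-fold the CPM of 3 counts in shMETTL3 libraries, and vector replicate 2 itself had only 3 counts. The pore-forming partners of ABCC8 and ABCC9, from a list of anchors and partners, fell: KCNJ11 (Kir6.2) by 1.83 and KCNJ8 (Kir6.1) by 2.33 on the log2 scale (edgeR adjusted p = 1.93e-09 and 2.84e-15). ABCC6, which mediates ATP release from the liver, fell by 0.47 (adjusted p = 0.00977), a call lost without shMETTL3 replicate 2 (-0.38, adjusted p = 0.0624) and with library size alone (-0.29, adjusted p = 0.0981). Its near-identical copies ABCC6P1 and ABCC6P2 had at most 5 and 3 counts, and the division of reads among the 3 loci is uncertain. ABCC10 (MRP7) was at -0.0081 (adjusted p = 0.962).

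In subfamily D, ABCD3, the peroxisomal importer of branched and long-chain acyl-CoA, was at 0.023 (edgeR adjusted p = 0.746), with 921 to 1073 counts in vector and 982 to 1194 counts in shMETTL3 libraries. ABCD4, which serves lysosomal cobalamin export, was at 0.056 (edgeR adjusted p = 0.496), with 451 to 464 counts in vector and 455 to 552 counts in shMETTL3 libraries. The groups overlapped for both genes, and neither was called, whereas with library size alone ABCD3 was at 0.20 (adjusted p = 0.00847) and ABCD4 at 0.23 (adjusted p = 0.00585).

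The members that do not transport are ABCE1 and subfamily F. ABCE1, which splits ribosomes after termination, had 1387, 1286 and 1137 counts in vector and 2016, 1949 and 1674 counts in shMETTL3 libraries, and rose by 0.45 on the log2 scale (edgeR adjusted p = 7.09e-08), with all 3 knockdown libraries above the vector range. Its exons overlap OTUD4 by 276 and ANAPC10 by 132 bases on the opposite strand. ABCF2 and ABCF3 were at 0.12 (adjusted p = 0.269) and 0.015 (adjusted p = 0.85), and neither was called. With library size alone both were (0.29, adjusted p = 0.00919, and 0.19, adjusted p = 0.0121). ABCF2 shares 1914 bases of exon with another annotated gene on the same strand.

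ABCF1, a ribosome-associated factor used by all cells, was listed at 0 in all 6 libraries and gives no measurement here. It lies among the HLA genes on chromosome 6, where 121 of 134 protein-coding genes from position 29624779 to position 33180499 of GRCh37 had at most 3 counts in every library, beside 24.8% of those on the rest of the chromosome. TUBB and GNL1, housekeeping genes of the same stretch, had at most 1 count and 0 counts. TAP1 and TAP2, the ABC subfamily B peptide transporters of antigen presentation, which the symbol rule leaves out, lie in the same stretch and were also listed at 0. The cause was not tested.

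The other 12 untested members had low counts in both groups. ABCA9, ABCA13, ABCB11, ABCC11, ABCC12, ABCD2 and ABCG8 had at most 3 counts in every library, ABCC12 and ABCD2 with 0 throughout. ABCA6, ABCB5, ABCG4 and ABCG5 had at most 12 counts, and ABCC9 is given above. At these depths 3 counts correspond to 0.150 to 0.189 CPM, and lower levels were not detectable. CFTR, the chloride channel of subfamily C, which the symbol rule also leaves out, had 4, 1 and 2 counts in vector and 27, 16 and 26 counts in shMETTL3 libraries (log2 fold change 3.13, edgeR adjusted p = 4.45e-06). It reached the filter only through the knockdown libraries.

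Transcription factors that act on ABC genes were examined as a list of 19, of which 16 were tested. Of these, 14 were called, 6 higher and 8 lower, beside 66.6% of all tested genes. The median log2 fold change of the list was -0.17. PPARG, the fatty acid receptor upstream of LXR in macrophages, rose by 1.66 on the log2 scale, and RXRA, the shared partner of LXR, PPAR and the xenobiotic receptors, by 1.29. SREBF1 and SREBF2, the activators of fatty acid and cholesterol synthesis, fell by 1.57 and 1.17. The edgeR adjusted p of these 4 genes ran from 1.61e-18 for SREBF1 to 2.1e-15 for PPARG. The LXR genes NR1H3 and NR1H2, named after their values were seen, fell by 0.47 and 0.29. AHR, a known regulator of ABCG2, was at -0.092 (adjusted p = 0.161), NFE2L2, known to act on the MRP genes, fell by 0.25, and NR1I2, the pregnane X receptor known for inducing ABCB1, had at most 2 counts. These 3 were also named after their values were seen.

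Lipid acceptors and LXR targets were a list of 14 that holds ABCA1, ABCG1 and SREBF1 as well. Of 13 tested, 9 were called, 5 higher and 4 lower, beside 66.6% of all tested genes. APOE, an acceptor of the lipid that ABCA1 exports, rose by 2.34 on the log2 scale, from 1.38 ± 0.449 to 7.07 ± 0.401 CPM (SD, n = 3 each; edgeR adjusted p = 2.62e-11). PLTP, a phospholipid transfer protein, rose by 1.58 (adjusted p = 0.00188), at under 1 CPM in the mean of either group, and reached the filter only through the knockdown libraries. SREBF1, itself an LXR target, fell, as given above.

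Of 17 glutathione synthesis and conjugation genes, which make the substrates of the MRPs, 15 were tested. Of these, 14 were called, 6 higher and 8 lower, beside 66.6% of all tested genes. GSTP1, the abundant pi-class transferase, fell by 0.95 and MGST3 by 0.83 on the log2 scale (edgeR adjusted p = 1.49e-14 and 1.01e-13). GSTM3 rose by 2.76 (adjusted p = 2.2e-13). GSTM2 had at most 3 counts in each vector library and reached the filter only through the knockdown libraries. Its mean knockdown level was 4.89-fold the CPM of 3 counts in vector libraries, with no error on that mean. Reads of the GSTM genes, which are close copies, may be divided among them.

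Of 11 membrane anchors and channel partners, 9 were called, 2 higher and 7 lower, beside 66.6% of all tested genes. The median of the list was -0.66. Beside KCNJ8 and KCNJ11, the PDZ scaffolds SLC9A3R2 and SLC9A3R1, which hold transporters at the apical membrane, fell by 0.90 and 0.69 (edgeR adjusted p = 4.13e-12 and 1.37e-08). Of 15 drug uptake transporters, 13 were tested and 11 called, 5 higher and 6 lower, beside the same 66.6%. SLCO3A1 rose by 2.45, the organic cation transporters SLC22A4 and SLC22A3 rose by 1.42 and 1.23, and the nucleoside transporter SLC29A2 fell by 1.79, each with an adjusted p of 3.94e-11 or lower.

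Surfactant and lamellar body genes, the setting in which ABCA3 works, were mostly near or below detection, as 5 of 10 were tested. SFTPD fell by 3.24 on the log2 scale from 56, 60 and 78 counts to 6, 11 and 5 counts (edgeR adjusted p = 2.31e-10), and reached the filter only through the vector libraries. CTSH, a lamellar body protease, rose by 1.17 and LPCAT1, which makes surfactant phospholipid, fell by 0.37. SFTPB had at most 3 counts in each vector library and reached the filter only through the knockdown libraries. Its mean knockdown level was 4.83-fold the CPM of 3 counts in vector libraries, with no error on that mean. NAPSA was not called. SFTPA1, SFTPA2 and SFTPC, which accompany ABCA3 in type II cells, had at most 6 counts in any library, while ABCA3 stood at 85.9 ± 9.20 CPM (SD, n = 3) in vector libraries.

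**Figure D4:**
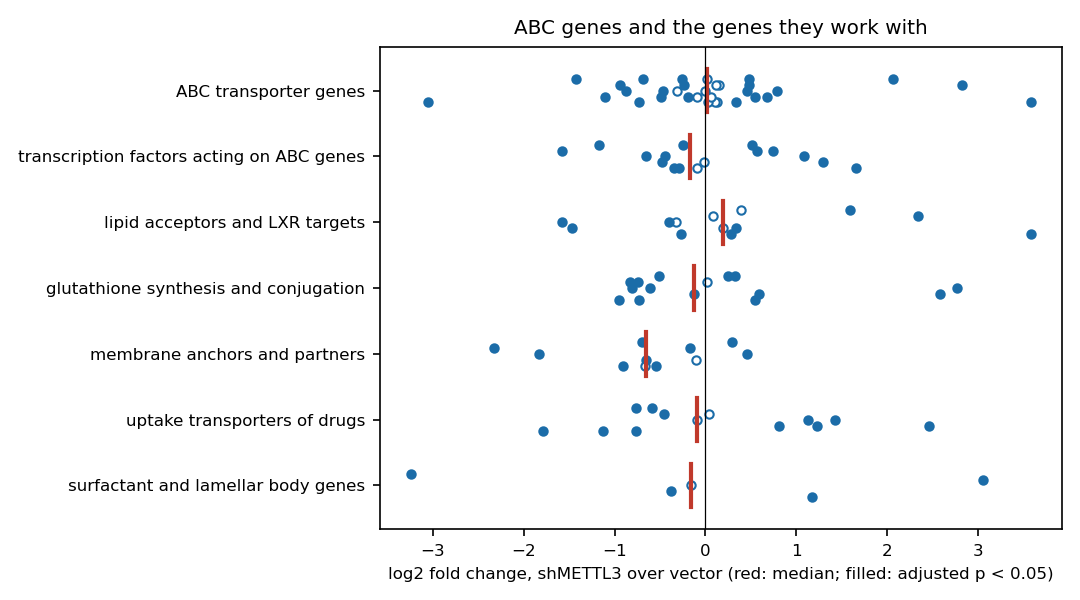
Log2 fold change, shMETTL3 over vector, of the tested ABC transporter genes and of the tested genes of 6 related lists; each point is a gene, filled where the adjusted p was under 0.05, and red bars are medians. Each list spreads to both sides of 0, and the membrane anchors and partners have the lowest median, at -0.66.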

How the data were processed

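The authors mapped reads to hg19 with HISAT2, counted them per gene with htseq and deposited raw counts, whole numbers for 57781 gene symbols, without normalization. The submitters' processing notes list cutadapt 3.0, HISAT2 2.2.1, SAMtools 1.13 and HTSeq 0.13.5, which differ in part from the versions in the study's methods. Annotation and strand setting are not given in the sources used here. Groups and replicate numbers came from the sample titles, and 0 per-sample columns were left unused.

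Counts were analysed in R 4.3.3 with edgeR 4.0.16 (TMM, filterByExpr, glmQLFit, glmQLFTest, group only) over all 15125 genes that passed the filter. Standard errors came from the coefficient and the F statistic. DESeq2 1.42.0 and limma 3.58.1 (voom), other scalings, filters and thresholds, a replicate block and leaving out each library were alternatives. Positions, biotypes and exon lengths came from GENCODE v44lift37 on GRCh37, the build of hg19. The functions were tested on simulated data. Replicates differed by more than sampling noise, with a chi-square per degree of freedom of 2.76 to 7.38 within groups and 78.0 to 98.1 across groups. The floor was fixed at 3 counts per library, and the folds given against it include no counting error.

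The members and gene lists were chosen with earlier results of these data known. Counts per library are given for the drug efflux and lipid transport genes and for other called members with a log2 fold change of at least 1 in size, and from each other list up to 4 called genes with the largest changes are named. Some items are not reported here, although they enter the counts over the family.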

Additional observations from a re-analysis of the deposited data

How the results depend on the processing

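Over 14 alternative fits, 18 of the 22 called members kept their call and direction in each fit that tested them (ABCC8 was left out by a minimum of 10 counts in every library), and ABCA3, ABCC1, ABCC2 and ABCC6 lost it in at least 1 of them. ABCA1 stayed between 3.37 and 3.75, ABCA4 between -3.17 and -2.88, and ABCB1 between -1.47 and -1.25 on the log2 scale. With library size alone, 17 members were called higher and 8 lower, and 65.8% of all called genes were higher, beside 50.6% under TMM. A minimum log2 fold change of 1 in size left 3 members called higher and 3 lower, 1 drug efflux gene, 1 lipid transport gene and 2668 of all genes, 1545 higher and 1123 lower, since that minimum removes small changes. Without a filter on low counts, edgeR also called ABCA6 (log2 fold change 4.42, adjusted p = 0.0413) and ABCC9 (-2.98, adjusted p = 0.00939). ABCA6 had 0 counts in every vector library and 2, 4 and 2 counts in shMETTL3 libraries.

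Directions changed for 5 members, none of them called under TMM scaling. ABCA10 was at 0.079 with library size alone, 0.15 with limma-voom, and between -0.50 and 0.29 across the 6 fits without 1 library. ABCC10 was at 0.015 with upper-quartile scaling, 0.17 with library size alone, 0.0097 with at least 10 counts in every library and 0.0097 with limma-voom, and between -0.16 and 0.074 without 1 library. Without 1 library, ABCB6 ran from -0.62 to 0.015, ABCD3 from -0.022 to 0.071 and ABCF3 from -0.045 to 0.060, and with library size alone ABCD3 (0.20, edgeR adjusted p = 0.00847) and ABCF3 (0.19, edgeR adjusted p = 0.0121) were called higher. The cause was not tested.

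The replicate numbers were shared by both groups, but the deviations of same-numbered libraries correlated at only 0.069, -0.024 and 0.039, so the numbers were not taken as pairs. With the replicate block, 10 members were called higher and 12 lower, and 10111 of all genes were called.

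Depth limits what could be compared, since 12 members had too few counts to be tested. ABCF1, also untested, was at 0 in a stretch of chromosome 6 where most genes had at most 3 counts in every library, and the cause was not tested.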
